A study of Mus musculus with 5 samples.

Results

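The transcripts of 7 mouse genes of mitophagy were described in sorted pancreatic cancer cells: the receptor genes Bnip3, Bnip3l, Fundc1, Bcl2l13, Fkbp8 and Phb2, and the kinase gene Pink1. They were chosen by symbol, each symbol was found in 1 row, and they are 7 of the 52459 rows of the expression table. The comparison was between AThi cells (autophagy-high, 2 libraries) and ATlo cells (autophagy-low, 3 libraries). Both groups came from 1 line, HY15549, of C57BL/6 strain background, and both carry the GFP-LC3-RFP autophagy flux reporter, in which the ratio of green to red signal reads autophagy. Organoids of these cells, kept in Matrigel and DMEM with serum, had been broken up and sorted on that ratio; no other treatment is labelled. The replicates are called biological, but whether each came from its own culture is not stated, so p-values reflect library-to-library spread.

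Mitophagy is the autophagy of mitochondria. In one route, receptor proteins that sit in the mitochondrial membranes bind ATG8 proteins such as LC3 and GABARAP on the growing autophagosome and so tether the organelle to it. In the other, the kinase PINK1 builds up on damaged mitochondria, phosphorylates ubiquitin and recruits and activates the ubiquitin ligase Parkin, whose ubiquitin chains are then read by soluble receptors. BNIP3 and NIX, the product of Bnip3l, are known as targets of hypoxia-inducible factors (HIF), which couple the first route to oxygen supply, and NIX is best known for clearing mitochondria from maturing red blood cells. In pancreatic cancer, autophagy is known as a source of nutrients for the tumour cell.

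The promoters of the genes are shown first, because Bnip3 and Pink1 had the largest changes of the 7 genes and moved in one direction, and Phb2 moved in the other. Sequences of 300 bases around the start that RefSeq annotates (GRCm38.p6) were taken from its table and matched 6 of the 7 genes, all but Bnip3l. They are printed 5′ to 3′ in the direction of the gene, and capitals mark the core letters of the hypoxia response element, ACGTG or GCGTG, on either strand, and the E-box CACGTG, which holds ACGTG on both strands. The stretches are chr7:138909457-138909756 (minus strand) for Bnip3, chr4:138326247-138326546 (minus strand) for Pink1 and chr6:124712039-124712338 (plus strand) for Phb2.
Bnip3: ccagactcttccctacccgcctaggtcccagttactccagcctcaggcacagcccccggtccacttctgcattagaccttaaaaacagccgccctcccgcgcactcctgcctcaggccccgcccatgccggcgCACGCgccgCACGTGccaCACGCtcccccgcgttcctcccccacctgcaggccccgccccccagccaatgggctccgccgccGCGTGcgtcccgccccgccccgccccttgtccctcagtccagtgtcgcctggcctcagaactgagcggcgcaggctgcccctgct
Pink1: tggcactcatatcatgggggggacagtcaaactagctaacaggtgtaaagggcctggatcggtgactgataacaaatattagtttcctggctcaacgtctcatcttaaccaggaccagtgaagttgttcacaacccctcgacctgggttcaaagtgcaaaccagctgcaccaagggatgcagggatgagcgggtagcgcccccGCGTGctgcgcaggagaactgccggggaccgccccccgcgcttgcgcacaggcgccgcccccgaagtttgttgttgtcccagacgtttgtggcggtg
Phb2: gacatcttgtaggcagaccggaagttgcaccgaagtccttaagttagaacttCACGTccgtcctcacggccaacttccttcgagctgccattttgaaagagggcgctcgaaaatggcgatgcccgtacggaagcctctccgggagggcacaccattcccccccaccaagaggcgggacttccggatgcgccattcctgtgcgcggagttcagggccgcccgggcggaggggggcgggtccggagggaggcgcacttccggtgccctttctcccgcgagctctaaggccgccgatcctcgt

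The Bnip3 stretch held 2 matches to ACGTG, which form 1 E-box at position -108 from the annotated start, and 3 matches to GCGTG, at positions -117, -99 and -35. Pink1 held 1 GCGTG at position -47 and Phb2 held 1 ACGTG, on the other strand, at position -198. Of the other stretches, that of Fkbp8 held 1 match to each core, that of Bcl2l13 held 1 GCGTG, and that of Fundc1, which lies wholly inside the gene as GENCODE annotates it, held neither. Matches were thus present in genes that rose and in genes that fell. Among all 32851 promoters of the table, 43.8% held ACGTG or GCGTG and 7.15% held CACGTG. The forkhead letters TGTTTAC, which FOXO factors bind, occurred in 3.65% of all promoters and in 0 of these 6. These matches describe letters in a window and are not tested binding sites.

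Of the 7 genes, 3 rose in AThi cells (Bnip3, Pink1 and Bnip3l), 3 fell (Phb2, Bcl2l13 and Fkbp8) and Fundc1 did not pass the test. Levels are given in FPKM, which counts fragments per kilobase and scales them to library depth, as the authors deposited them. The test was limma on log2(FPKM + 0.5), two-sided, over all 11397 genes with an average of 1 FPKM or more, and a call is a Benjamini-Hochberg adjusted p under 0.05. Calls were frequent in this comparison: 51.6% of all genes tested passed, 22.2% higher and 29.4% lower in AThi cells, so a call by itself does not set a gene apart. For 6 of the 7 genes, 3 in each direction, the AThi and ATlo values were fully separate, as they were for 70.3% of all genes tested, 31.9% with AThi higher and 38.4% with AThi lower. Fold changes are log2, AThi minus ATlo, on the log2(FPKM + 0.5) scale. The median over all genes tested was -0.03.

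**Figure D1:**
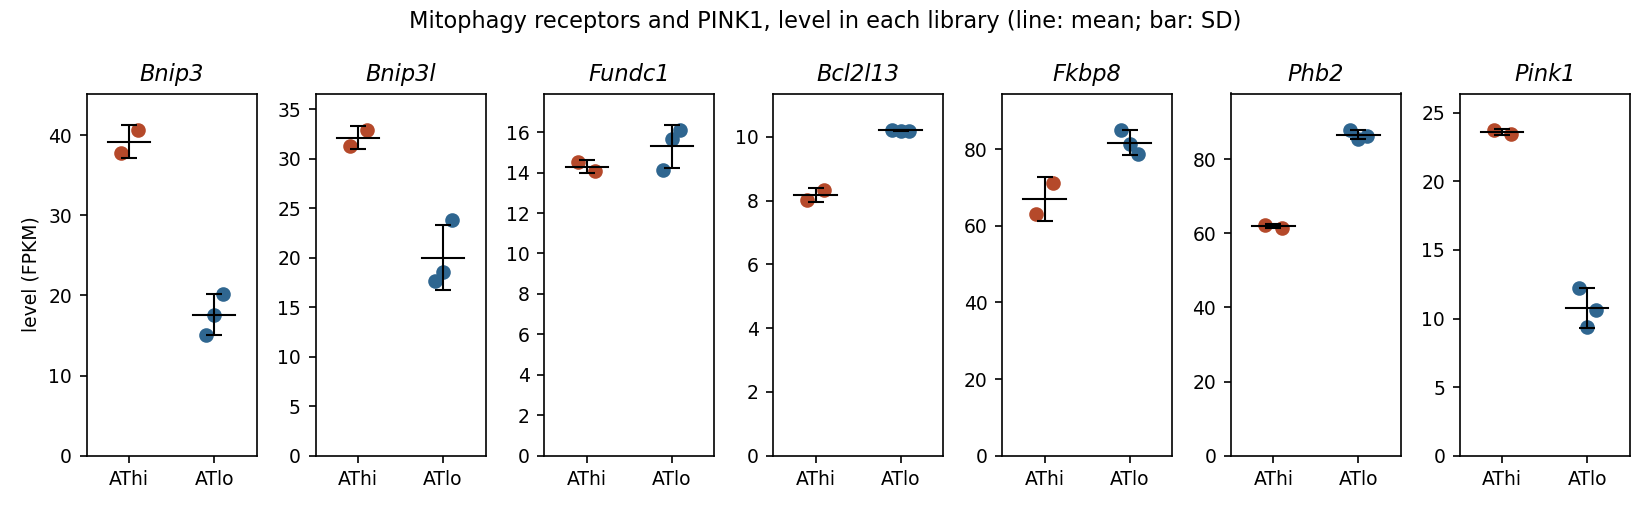
Level in FPKM (vertical axis, from 0) of each of the 7 genes in every library, AThi left and ATlo right; points are libraries, the long line is the mean and the bar the SD (n = 2 and 3). Bnip3, Bnip3l and Pink1 lie higher in AThi cells, Bcl2l13, Fkbp8 and Phb2 lie lower, and the groups overlap in Fundc1.

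Bnip3 encodes a receptor of the outer mitochondrial membrane that belongs to the BH3-type relatives of BCL2. It was at 37.71 and 40.67 FPKM in AThi cells, against 15.03, 17.61 and 20.17 FPKM in ATlo cells. Both AThi libraries lay far above every ATlo library. The means were 39.2 ± 2.09 FPKM in AThi cells (SD, n = 2) and 17.6 ± 2.57 FPKM in ATlo cells (SD, n = 3). The log2 fold change was 1.14 ± 0.12 (SE; limma adjusted p = 0.000399). Its 95% interval was 0.86 to 1.42, and the change ranked 212 from the highest among the 11397 genes tested.

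Bnip3l, the paralogue whose product NIX shares the receptor role, was at 31.31 and 32.94 FPKM in AThi cells and at 17.7, 18.57 and 23.77 FPKM in ATlo cells. The groups were separate here too, but ATlo replicate 3 stood above the other ATlo libraries, as it did for Bnip3. The log2 fold change was 0.68 ± 0.12 (SE; 95% interval 0.39 to 0.97; limma adjusted p = 0.0039). The level of Bnip3 was above that of Bnip3l in both AThi libraries, at ratios of 1.20 and 1.23, and below it in the ATlo libraries, at ratios of 0.849, 0.948 and 0.849. An exact two-sided permutation test of this ratio gave p = 0.2, the smallest this test gives for 2 against 3 libraries. After adjustment over the 4 ratios tested, p was 0.267.

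Fundc1 encodes a further outer membrane receptor, regulated by phosphorylation near its LC3-binding motif. Its level was 14.52 and 14.08 FPKM in AThi cells, against 14.11, 15.65 and 16.12 FPKM in ATlo cells. The groups overlapped, since ATlo replicate 1 lay beside the AThi libraries. The log2 fold change was -0.09 ± 0.07 (SE; limma adjusted p = 0.339), and its 95% interval, -0.27 to 0.09, holds neither the rise of Bnip3l nor the fall of Phb2.

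Bcl2l13, the mammalian counterpart of the yeast mitophagy receptor Atg32, had the lowest level of the 7 genes in AThi cells. It was at 8.02 and 8.34 FPKM in AThi cells and at 10.22, 10.19 and 10.19 FPKM in ATlo cells. The groups did not overlap, and the ATlo libraries differed by less than counting error, which was 1.60% to 2.23% over the 5 libraries at their depth. It fell by 0.30 on the log2 scale (SE 0.06; 95% interval -0.45 to -0.16; limma adjusted p = 0.00585).

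Fkbp8 encodes FKBP38, an outer membrane member of the FK506-binding family that anchors BCL2 and recruits LC3A. Its level was 63.01 and 71.13 FPKM in AThi cells, against 85.09, 81.42 and 78.7 FPKM in ATlo cells. The groups did not overlap, and the AThi libraries differed more from each other than the ATlo libraries did. The log2 fold change was -0.29 ± 0.08 (SE; 95% interval -0.47 to -0.10; limma adjusted p = 0.0182). Without AThi replicate 1 it was -0.20 with an adjusted p of 0.103, and without ATlo replicate 2 it was -0.29 with an adjusted p of 0.0583, so this call rests on those libraries.

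Phb2 encodes prohibitin 2, which forms a ring complex with prohibitin 1 in the inner mitochondrial membrane and binds LC3 once the outer membrane has ruptured. It was at 62.36 and 61.5 FPKM in AThi cells, against 87.95, 85.58 and 86.37 FPKM in ATlo cells. The groups were well apart and the spread within each was small. Phb2 fell by 0.48 on the log2 scale (SE 0.06; 95% interval -0.62 to -0.34; limma adjusted p = 0.000707), the largest fall of the 7 genes. Phb, the gene of its partner prohibitin 1, fell as well, by 0.39 (SE 0.07; adjusted p = 0.00408), at 13.9 and 12.89 FPKM in AThi cells and 18.9, 17.19 and 17.19 FPKM in ATlo cells. The ratio of Phb2 to Phb was 4.49 and 4.77 in AThi cells and 4.65, 4.98 and 5.02 in ATlo cells, ranges that overlap (exact two-sided permutation p = 0.4).

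Pink1 encodes the kinase that marks damaged mitochondria for Parkin. It was at 23.77 and 23.43 FPKM in AThi cells, against 12.25, 9.36 and 10.64 FPKM in ATlo cells. The AThi libraries were nearly equal and stood above all ATlo libraries. The means were 23.6 ± 0.24 FPKM in AThi cells (SD, n = 2) and 10.8 ± 1.45 FPKM in ATlo cells (SD, n = 3), and the log2 fold change was 1.11 ± 0.11 (SE; 95% interval 0.85 to 1.36; limma adjusted p = 0.000316). The change ranked 224 from the highest among all genes tested. Unlike Bnip3 and Bnip3l, Pink1 was highest within ATlo cells in replicate 1, not in replicate 3.

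**Figure D2:**
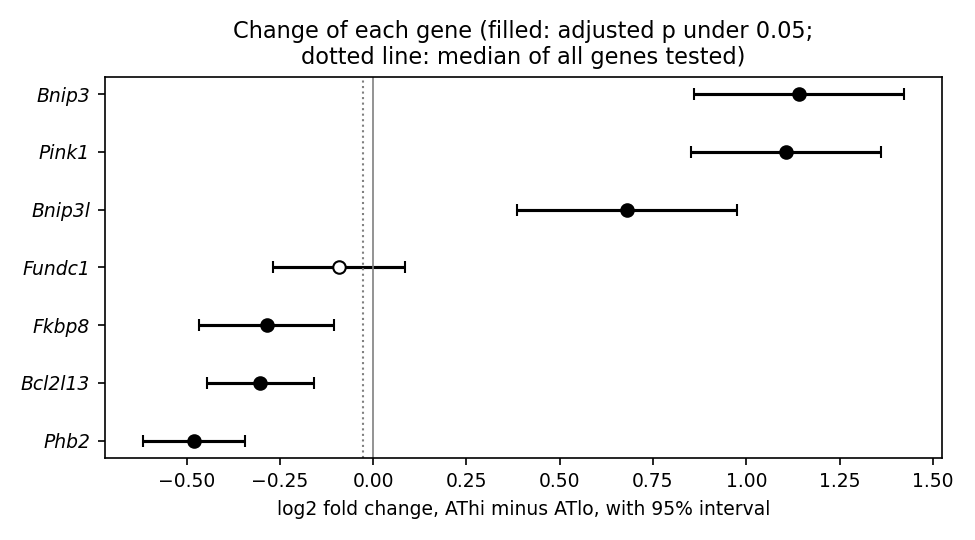
Log2 fold change of each gene, AThi minus ATlo (horizontal axis), with its 95% interval from limma; filled points passed an adjusted p of 0.05 and the dotted line is the median of all genes tested, -0.03. Bnip3 and Pink1 lie above 0.85 over their whole intervals, and the interval of Fundc1 spans 0.

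The order of the levels differed between the groups. In AThi cells it ran from Fkbp8 through Phb2, Bnip3, Bnip3l, Pink1 and Fundc1 to Bcl2l13, and no neighbours overlapped in their 2 libraries. In ATlo cells it ran from Phb2 through Fkbp8, Bnip3l, Bnip3, Fundc1 and Pink1 to Bcl2l13, where Bnip3l and Bnip3, Bnip3 and Fundc1, and Pink1 and Bcl2l13 overlapped. FPKM are scaled by a length per gene, but which length was used is not given. The order of the genes, and the sum, shares and ratios between genes, depend on it.

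The summed level of the 7 genes was similar in every library, while its make-up was not. The sum was 240.7 and 252.1 FPKM in AThi cells, against 242.4, 238.4 and 246.0 FPKM in ATlo cells, and the ranges of the groups overlapped. Bnip3, Bnip3l and Pink1, grouped here after their values were seen, made up 38.6% and 38.5% of the sum in AThi cells and 18.6%, 19.1% and 22.2% in ATlo cells. The level of Bnip3 relative to that of Phb2 was 0.605 and 0.661 in AThi cells and 0.171, 0.206 and 0.234 in ATlo cells. The level of Pink1 relative to that of Fundc1 was 1.64 and 1.66 in AThi cells, against 0.868, 0.598 and 0.660 in ATlo cells. For each of these ratios the exact two-sided permutation p was 0.2, again the smallest this test gives here, and the adjusted p was 0.267.

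**Figure D3:**
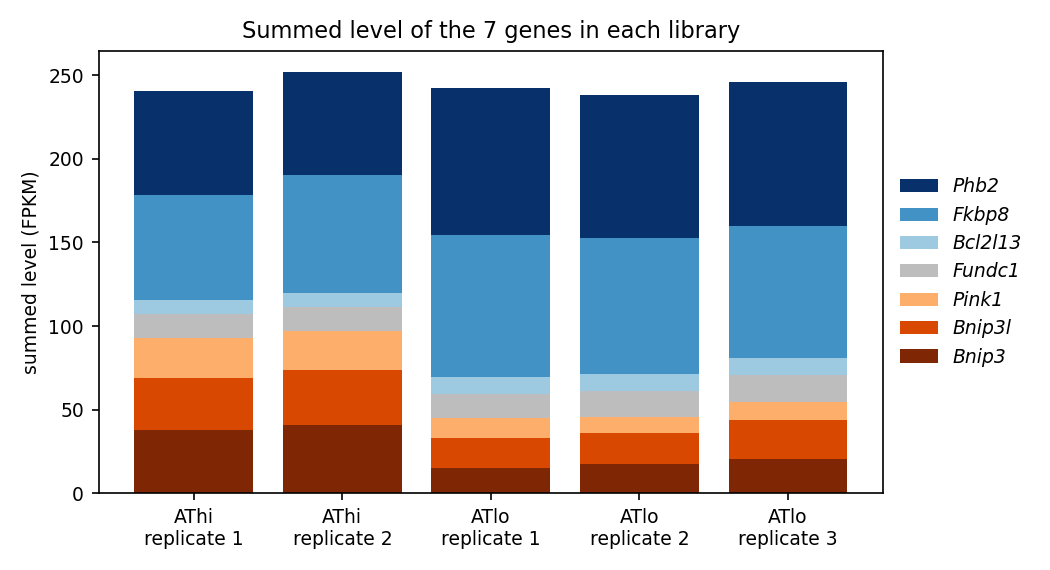
Summed level in FPKM (vertical axis, from 0) of the 7 genes in each library, AThi libraries left and ATlo libraries right, with each gene as a coloured segment. The bars reach 238.4 to 252.1 FPKM, and Bnip3, Bnip3l and Pink1 (warm colours, at the base) take a larger part in AThi cells.

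Other genes of the PINK1-Parkin pathway fell or missed the threshold. Of 23 tested, 8 fell, 0 rose and 15 missed it, and their median change was -0.07 on the log2 scale. Over all genes tested, 22.2% were called higher and 29.4% lower, so the count that fell does not set this list apart. After rescaling the libraries, 2 (TPM) or 3 (median of ratios) genes of the list passed as higher. Among them were Usp30 and Usp35, which encode deubiquitinases, with adjusted p-values of 0.0474 to 0.0490. The Parkin gene, listed as Park2, was below the filter, at 0.4 and 0.52 FPKM in AThi cells and 0.17, 0.11 and 0.12 FPKM in ATlo cells. Among the genes that act on PINK1 itself, Parl, the inner membrane protease that cleaves it, fell by 0.52 (SE 0.08; limma adjusted p = 0.0019), and Oma1, a stress-activated protease, by 0.55 (SE 0.09; adjusted p = 0.00196). Tomm7, a pore subunit that holds PINK1 at the outer membrane, fell by 0.27 (adjusted p = 0.0175), a call lost without AThi replicate 1 (-0.22, adjusted p = 0.0991) and without ATlo replicate 2 (-0.23, adjusted p = 0.0720). The largest fall was in the mitochondrial protease gene Htra2, at -0.97 ± 0.06 (SE), and Vcp, whose ATPase extracts ubiquitinated proteins, fell by 0.57. Usp30, which encodes the deubiquitinase that opposes Parkin, was at 4.94 and 4.64 FPKM in AThi cells and at 4.25, 4.17 and 4.13 FPKM in ATlo cells, and missed the threshold (adjusted p = 0.0847). Calcoco2, the gene of the soluble receptor NDP52, was listed at 0 in all 5 libraries, while Optn, which encodes optineurin, was tested and missed the threshold (adjusted p = 0.525).

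Of 15 tested regulators and partners of the receptors, 4 rose, 4 fell and 7 missed the threshold. Over all genes tested, 22.2% were called higher and 29.4% lower, so these counts do not set the list apart. Those that rose were Fbxl4, Bcl2, Bcl2l1 and Ulk1. Fbxl4, which encodes a ubiquitin ligase subunit that turns over BNIP3 and NIX, rose by 0.49 ± 0.07 (SE; limma adjusted p = 0.00145), at 10.84 and 10.75 FPKM in AThi cells and 8.03, 7.36 and 7.23 FPKM in ATlo cells. The anti-apoptotic genes Bcl2 and Bcl2l1, whose products bind BNIP3-type proteins, rose by 0.96 ± 0.10 and 0.36 ± 0.06 (SE). Ulk1, the autophagy kinase known to phosphorylate FUNDC1, rose by 0.39 ± 0.08 (SE). Pgam5, the phosphatase gene that acts on FUNDC1, fell by 0.35, and Csnk2b and Csnk2a2, subunits of the kinase CK2 that opposes it, fell by 0.55 and 0.42. The CK2 subunit gene Csnk2a1 did not pass, at 0.01 (limma adjusted p = 0.927). Nor did the kinase gene Src, at -0.005 (adjusted p = 0.958). Of 3 tested genes of other proposed receptors, Mcl1 rose by 0.71 ± 0.08 (SE), and Nipsnap1 and Nipsnap2 did not pass. Among the ATG8 genes, whose products the receptors bind, 4 of 5 rose, led by Gabarapl1 at 0.63 ± 0.07 (SE), Map1lc3a at 0.54 ± 0.08 (SE) and Map1lc3b at 0.39 ± 0.06 (SE). The fourth was Gabarap, at 0.27. Its call was lost without AThi replicate 1, without AThi replicate 2, without ATlo replicate 2 and without ATlo replicate 3, at changes of 0.22, 0.32, 0.25 and 0.22 and adjusted p-values of 0.168, 0.0677, 0.112 and 0.0984, and with no filter on low values (adjusted p = 0.0954).

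Most HIF targets rose, as Bnip3 and Bnip3l did. Of 22 tested target genes, chosen without these genes, 19 rose and 0 fell, and the median over the 22 was 0.79 on the log2 scale. The others were Slc2a1, at 0.29 (limma adjusted p = 0.0529), Pfkfb4, at 0.17 (adjusted p = 0.392), and Ldha, at -0.20 (adjusted p = 0.132). The largest rises were in Adm, the adrenomedullin gene, at 1.93 ± 0.14 (SE), P4ha2, a collagen prolyl hydroxylase gene, at 1.70 ± 0.10 (SE), and the oxidoreductase gene Ero1l at 1.64 ± 0.12 (SE). The log2 fold change of Bnip3, 1.14, lay above the median of these targets, and that of Bnip3l, 0.68, below it. Of the factor genes, Hif1a was lower in AThi cells, at 19.32 and 15.3 FPKM, against 22.4, 24.05 and 27.61 FPKM in ATlo cells (log2 fold change -0.50 ± 0.12, SE; limma adjusted p = 0.0128). That call was lost without AThi replicate 2, where the change was -0.34 and the adjusted p 0.0825, and with no filter on low values (adjusted p = 0.0531). Of 8 tested genes of HIF factors and oxygen sensors, 4 rose, 1 fell (Hif1a) and 3 missed the threshold. Egln1 and Egln3, sensor genes which are themselves HIF targets, rose by 0.94 ± 0.08 and 1.06 ± 0.23 (SE). Arnt and Vhl rose by 0.31 ± 0.06 and 0.33 ± 0.07 (SE). The factor gene Epas1 was at 0.60 ± 0.28 (SE; limma adjusted p = 0.108). The sensor genes Egln2 and Hif1an were at -0.05 and 0.12 (adjusted p = 0.624 and 0.132).

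Of 12 FOXO factors and targets, 9 rose and 0 fell, around a median of 0.38. Without ATlo replicate 2, 8 rose, and Cat missed the threshold (limma adjusted p = 0.0586). With no filter on low values, 8 rose, and Ccng2 missed it (adjusted p = 0.0538). Without AThi replicate 1 the calls of Foxo4, Cat and Ccng2 were lost, at changes of 0.30, 0.27 and 0.39. With all libraries these changes were 0.35, 0.30 and 0.41. Without AThi replicate 2 the calls of Cited2 and Ccng2 were lost, at 0.27 and 0.44, against 0.30 and 0.41 with all libraries. These fits leave 1 AThi library each. FOXO3 is known in mouse muscle as an activator of Bnip3 and Bnip3l. Foxo3 rose by 0.73 ± 0.06 (SE; limma adjusted p = 0.000231), at 12.58 and 12.98 FPKM in AThi cells and 7.64, 7.22 and 7.73 FPKM in ATlo cells. Its known targets Sesn3 and Irs2 rose by 0.91 ± 0.08 and 0.89 ± 0.11 (SE), and Bcl6 by 0.73 ± 0.08 (SE). The genes of the list that missed the threshold were Gadd45a, Sesn1 and Sod2. They were at 0.27, -0.02 and -0.12 (limma adjusted p = 0.235, 0.904 and 0.186). The binding or activity of these factors was not measured.

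Most tested genes of the outer and inner membrane and of the matrix fell, as Phb2 did. Among 15 tested outer membrane genes, 12 fell and 1 rose, around a median log2 fold change of -0.39. The fall was largest in Tomm40, the import channel gene, at -0.94 ± 0.07 (SE), Cyb5b at -0.83 ± 0.07 (SE) and Mtx1 at -0.83 ± 0.07 (SE), and the exception was the import receptor gene Tomm20, which rose by 0.34 (limma adjusted p = 0.00398). Of 11 tested inner membrane and prohibitin partner genes, 8 fell and 0 rose, around a median of -0.39, led by Letm1 at -0.78 ± 0.08 (SE), Timm50 at -0.73 ± 0.06 (SE) and Stoml2, a prohibitin relative, at -0.60 ± 0.07 (SE). Of 15 matrix and respiratory chain genes, 10 fell and 0 rose, around a median of -0.31, led by the chaperonin gene Hspd1 at -0.83 ± 0.09 (SE), the cytochrome oxidase gene Cox5a at -0.70 ± 0.08 (SE) and the ATP synthase gene Atp5b at -0.70 ± 0.09 (SE). Without AThi replicate 1 and without ATlo replicate 2, 7 of these 15 genes fell. Of 14 fission and fusion genes, 0 rose and 4 fell, a count of 2 without AThi replicate 2 and without ATlo replicate 2. Those that fell were Mtfr2, at -1.89 ± 0.16 (SE), Oma1, given above, the fission-linked Mtfr1, at -0.24 ± 0.06 (SE), and the inner membrane fusion gene Opa1, at -0.22 ± 0.07 (SE). After rescaling to TPM or by the median of ratios, Opa1 missed the threshold (adjusted p = 0.083 and 0.0657). So it did with a replicate block (0.080), without trend in the moderation (0.0531) and with no filter on low values (0.0633). It also missed it without ATlo replicate 2 (0.125) and without ATlo replicate 3 (0.0981). The call of Opa1 was also lost without AThi replicate 1 and without AThi replicate 2, at changes of -0.21 and -0.23. Mtfr1 missed the threshold without ATlo replicate 2 (adjusted p = 0.0708). Its call was also lost without AThi replicate 2, at a change of -0.22. Mtfr1l, with an adjusted p of 0.0605, passed as higher after rescaling the libraries to TPM (0.0288) or by the median of ratios (0.0349), with array weights (0.0203) and without ATlo replicate 1 (0.0183). The fission GTPase gene Dnm1l had a log2 fold change of -0.26 and an adjusted p of 0.0523. Of 11 genes of mitochondrial biogenesis, 0 rose and 4 fell, led by Pprc1 at -0.64 ± 0.06 (SE), Nrf1 at -0.44 ± 0.09 (SE) and Polrmt, the mitochondrial RNA polymerase gene, at -0.35 ± 0.07 (SE). Over all genes tested, 22.2% were called higher and 29.4% lower. Beside that, the counts that fell among fission and fusion genes and among biogenesis genes do not set these lists apart. In these bulk libraries, less RNA per cell and fewer cells that hold it cannot be told apart.

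**Figure D4:**
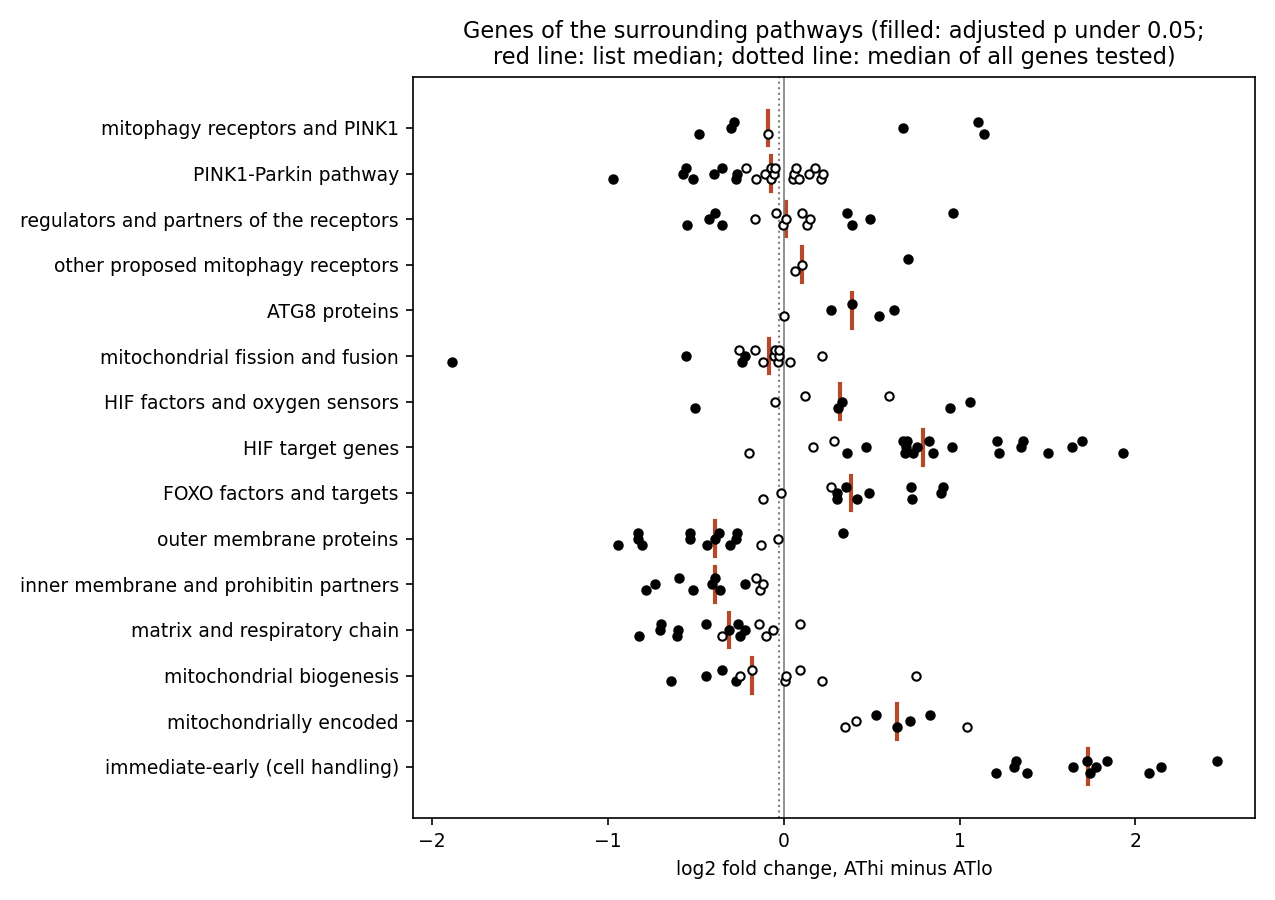
Log2 fold change, AThi minus ATlo (horizontal axis), of each tested gene in the 7 genes described here and in the lists around them (rows); filled points passed an adjusted p of 0.05, red lines are list medians and the dotted line is the median of all genes tested, -0.03. HIF targets lie mostly to the right with a median of 0.79, and outer and inner membrane genes lie mostly to the left, each with a median of -0.39.

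Other measures moved with the same groups. All 12 immediate-early genes, a class that growth signals and cell handling induce, rose, with a median log2 fold change of 1.73, led by Btg2 at 2.46 ± 0.35, Atf3 at 2.15 ± 0.32 and Dusp1 at 2.08 ± 0.34 (SE). The call of Jun was lost without AThi replicate 2 (adjusted p = 0.129), with no filter on low values (0.0848), with robust moderation (0.0819) and with array weights (0.0521). The summed level of the 12 genes was 3770 and 5929 FPKM in AThi cells, against 1606, 1964 and 1188 FPKM in ATlo cells. It was higher in AThi replicate 2, as were Bnip3 and Bnip3l, and lowest in ATlo replicate 3, where Bnip3 and Bnip3l were highest among ATlo libraries. Mitochondrially encoded RNAs made up 10.0% and 7.51% of all FPKM in AThi cells and 5.98%, 5.61% and 5.53% in ATlo cells. Of 7 tested mitochondrially encoded genes 4 rose, among them mt-Nd5 by 0.83 ± 0.20, mt-Co1 by 0.72 ± 0.19 and mt-Nd4 by 0.64 ± 0.17 (SE). The count was 7 with a replicate block, 6 with array weights and 6 without AThi replicate 2, but 0 without AThi replicate 1, 1 without ATlo replicate 2 and 0 with no filter on low values. The genes mt-Nd3, mt-Nd4l, mt-Co3, mt-Atp6 and mt-Atp8 were listed at 0, and mt-Co2 at 0 to 0.05 FPKM. The share of mitochondrially encoded RNAs given above thus holds almost nothing from these genes. The part of these measures in the changes of the 7 genes was not tested.

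By the distance between centred log2 values over the 5 libraries, the gene of most like pattern was Fignl2 for Bnip3 (distance 0.09), Gm36936 for Bnip3l (0.07), Cnnm2 for Pink1 (0.12), Dip2a for Fundc1 (0.04), Fkbp10 for Bcl2l13 (0.03), Ecsit for Fkbp8 (0.03) and Riox2 for Phb2 (0.02). The next were 2810408A11Rik for Bnip3, Scarf2 for Bnip3l, Mr1 for Pink1, Paip2b for Fundc1, Eif2b4 for Bcl2l13, Spsb3 for Fkbp8 and Cherp for Phb2. With 5 libraries in 2 groups, such likeness is mostly that of the group difference.

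The depth read from low values was 27.6 to 45.0 M reads in the 2 AThi libraries and 36.0 to 42.1 M reads in the 3 ATlo libraries. At that depth the 7 genes had about 900 (Pink1, ATlo replicate 2) to 16243 (Fkbp8, ATlo replicate 1) reads each, with a counting error of 0.785% to 3.33% per value. Epithelial markers had a summed level of 3548 and 4206 FPKM in AThi cells and 3814 to 4491 FPKM in ATlo cells, mostly from keratin genes and Cdh1, while Epcam was at 1.51 and 3.25 FPKM in AThi cells and 1.7 to 3.57 FPKM in ATlo cells. Of 6 acinar markers, 4 were at 0 in all libraries, and Cela1 was at 11.11 and 10.2 FPKM in AThi cells and 11.5 to 12.88 FPKM in ATlo cells. The leukocyte marker Ptprc was at 0.04 to 0.05 FPKM and Adgre1 at 0 in all libraries, fibroblast and endothelial markers summed to at most 0.17 FPKM in any library, and of the immune markers Cd68 exceeded 1 FPKM, at 8.68 and 14.74 FPKM in AThi cells and 4.31 to 4.55 FPKM in ATlo cells.

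The genes lie on chromosomes 7 (Bnip3, 138890836 to 138909519), 14 (Bnip3l, 66985239 to 67008877), X (Fundc1, 17556564 to 17572325), 6 (Phb2, 124712336 to 124716950, and Bcl2l13, 120836212 to 120892842), 8 (Fkbp8, 70527724 to 70535328) and 4 (Pink1, 138313409 to 138326307) of GRCm38, in the GENCODE M21 annotation. Exons of Bcl2l13 overlap those of Bid on the other strand over 628 bases of 9089, and exons of Fkbp8 overlap those of Kxd1 over 224 bases of 4529. Exons of Bnip3 overlap those of the antisense gene Gm45507, at 0 to 0.05 FPKM, over 504 bases of 2265. Exons of Phb2 overlap those of the antisense gene Gm15884, at 0 to 0.28 FPKM, over 141 bases of 3718. The library kit keeps the strand, per the labels, but the strand setting of the counting is not given in the sources used here, so reads in these stretches could have been assigned to either gene or to none. On the same strand, exons of Phb2 overlap the snoRNA gene Gm23547 over 155 bases. Those of Pink1 overlap the microRNA genes Mir7019 over 69 bases and Gm27646 over 110 bases. The pseudogene Bnip3l-ps was at 0.02 to 0.38 FPKM in all libraries.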

How the data were processed

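Messenger RNA from sorted HY15549 cells was sequenced in 2 AThi and 3 ATlo libraries. The values are FPKM that the authors deposited in 1 table of 52459 rows, rounded to 2 decimals. Tools named in the submitters' processing notes are STAR, featureCounts, bcl2fastq and DESeq2, with builds GRCm38 and mm10 and no versions. No strand setting, annotation release or FPKM formula is given in the sources used here. As relative values within a library, they do not show a change in total RNA per cell.

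The 11397 genes averaging 1 FPKM or more were fitted with limma 3.58.1 in R 4.3.3 (lmFit, eBayes with trend; 3 residual degrees of freedom, prior 3.89) on log2(FPKM + 0.5), with group as the single term and Benjamini-Hochberg adjustment over all of them. All adjusted p-values of genes come from this fit or the alternatives named. Ratios of levels were tested with exact permutation in SciPy 1.17.1. Depth came from single-exon genes of up to 200 bases, where FPKM multiplied by length gave multiples of 1 step (tolerance 0.1 of a step, 285 to 347 values in AThi and 264 to 302 in ATlo libraries, 100% whole). Exon lengths came from GENCODE M21, promoters from RefSeq. Of the lists, 1 symbol (March5) had no row of that name. Protein sequences were not used here.

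The members and lists were chosen with earlier results of these data known. Besides the 7 genes, named are the 3 largest changes per list among called genes averaging 2 FPKM or more, some named partners (such as Phb, Parl and Hif1a), the 2 genes of most like pattern, and list members chosen after their values were seen. Alternatives were other pseudocounts, filters, scalings, moderation and weights, a replicate block, and leaving out each library.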

Additional observations from a re-analysis of the deposited data

How the results depend on the processing

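The 7 genes kept their direction in all 15 alternative fits, and 6 of them stayed on the same side of the threshold in every one. Fkbp8 passed in 13 of 15. With each library left out in turn, its log2 fold change ranged from -0.37 to -0.20 and its adjusted p from 0.0185 to 0.103. The other ranges were 1.04 to 1.24 for Bnip3, 0.60 to 0.81 for Bnip3l, 1.02 to 1.20 for Pink1, -0.15 to -0.05 for Fundc1, -0.49 to -0.47 for Phb2 and -0.33 to -0.28 for Bcl2l13. A fit that leaves 1 AThi library assumes that it varies like the others. Over the other settings the adjusted p of Fundc1 was 0.169 to 0.587. The count of genes past the threshold was 4307 to 5723 with a library left out and 4414 to 6322 otherwise, against 5884. Rescaling moved the median over all genes by 0.04 at most. Replicates 1 and 2 share a number across groups and the first part of a bracketed code in their titles, whose meaning the labels do not give. The deviations of same-numbered libraries correlated at 0.20 and 0.30, over 2 pairs. With 2 AThi libraries the deviations from their mean are mirror images, so the crossed pairs gave -0.20 and -0.30. These values therefore cannot decide whether the libraries are paired. With a replicate block, which leaves 1 residual degree of freedom, 5909 genes passed and no call of the 7 genes changed: the values were 1.24 for Bnip3, 0.81 for Bnip3l, -0.05 for Fundc1, -0.48 for Phb2, -0.30 for Bcl2l13, -0.31 for Fkbp8 and 1.10 for Pink1. Replicate 3 is found in ATlo cells alone, so these values equal those without ATlo replicate 3 and are not a separate check. The p-values of this fit lean on its prior of 8.12 degrees of freedom.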
